A study of Mus musculus with 9 samples.

Results

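The array used here to measure circular RNAs (circRNAs) also carried probes for ordinary linear transcripts, and those probes are described below. A linear mRNA probe was taken as any non-control probe whose name starts with A_51_P, a prefix of Agilent's catalogue probes. There were 50 such probes of 14330 non-control probes, each printed as 10 spots, beside 14236 circRNA probes. The transcript named in the scanner files for 44 of the 50 matched 1 gene each in the RefSeq table of mouse assembly GRCm38.p6. The other 6 are called by the accession the scanner files give, namely XM_006525458, X89687, AK053689, AK004226, ENSMUST00000062524 and BC057074. The position of each probe within its transcript, and whether an exon it lies in also enters a circRNA, are not given in the sources used here. No gene among the 44 was named as a circRNA host among the 548 host symbols in the authors' tables, which list only circRNAs called in HuD RIP.

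CircRNAs form when a downstream splice donor is joined to an upstream splice acceptor, so they have no free end. RNase R is an exonuclease that digests RNA from a free 3′ end, and linear mRNAs are therefore open to it while closed circles are not. Labelling by random primers, used here, does not depend on a poly(A) tail, so fragments of linear RNA that outlast the digestion can also be labelled. HuD, the product of Elavl4, belongs to the Hu family, binds AU- and U-rich elements and is best known in neurons for stabilising linear mRNAs.

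RNA was recovered by RNA immunoprecipitation (RIP) from the striatum of adult mice, digested with RNase R, labelled with Cy3 and hybridised with 1 sample per array. HuD RIP was made with an anti-myc antibody from HuD-OE mice, which overexpress myc-tagged HuD from a transgene under the Camk2a promoter on a C57BL/6J background. WT RIP was made with the same antibody from wild-type tissue, which has no tagged protein. IgG RIP was made from HuD-OE tissue and is described in the methods as a precipitation with non-immune IgG, although its sample labels carry the anti-myc antibody and give no genotype beyond IgG. Each group had 3 arrays, numbered as replicates 1 to 3 in the labels. Tissue of 3 mice was combined for each precipitation and run in 3 RIP assays, and whether the assays drew on the same or on different animals is not clear from the sources used here, so the spread between arrays may be technical. All 9 samples had been digested, and no array of undigested or input RNA was analysed here. The share of linear RNA that outlasted RNase R can therefore not be given, and the values compare what the probes read after digestion.

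A probe was counted as detected on an array when a share of at least 0.5 of its spots carried the scanner's mark for signal well above background. Linear mRNA probes were detected on every array. On the HuD RIP arrays 26, 20 and 23 of the 50 were detected, on those of WT RIP 21, 11 and 14, and on those of IgG RIP 12, 12 and 11. HuD RIP thus had a mean of 23.0 ± 3.00 (SD, n = 3) detected probes, WT RIP one of 15.3 ± 5.13 (SD, n = 3) and IgG RIP one of 11.7 ± 0.577 (SD, n = 3). WT RIP replicate 1 lay within the range of HuD RIP, and WT RIP replicate 2 lay level with the lowest IgG RIP array, so HuD RIP overlapped WT RIP and stood clear of IgG RIP.

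The circRNA probes had much the same order of arrays. They were detected at 74.0%, 43.7% and 55.7% in HuD RIP, at 44.5%, 25.4% and 31.6% in WT RIP and at 26.3%, 21.7% and 21.7% in IgG RIP. The same shares of the linear mRNA probes were 52%, 40% and 46% in HuD RIP, 42%, 22% and 28% in WT RIP and 24%, 24% and 22% in IgG RIP. HuD RIP replicate 1 held the highest count of both classes, with HuD RIP replicate 3, WT RIP replicate 1 and HuD RIP replicate 2 following in that order for both. The circRNA share exceeded the linear share by 22.0 percentage points on HuD RIP replicate 1, by 9.66 on HuD RIP replicate 3 and by 2.27 to 3.68 on HuD RIP replicate 2, the WT RIP arrays and IgG RIP replicate 1. On IgG RIP replicates 2 and 3 the linear share was the higher, by 2.25 and 0.309 percentage points. Brightness of the arrays as a whole moved with these counts, and its part in them was not tested. The array further held 15 non-control probes with a name that marks them as negative, of which 12 were detected on no array, 1 on all 9 and 2 on some. The 1 detected on all 9 read 3.77 to 4.63 in log2 signal, and the 2 detected on some reached 2.89 and 3.03. Detection alone therefore did not show that the transcript named for a probe was present.

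Signal is given as log2 of the processed signal, averaged over the spots of a probe, and is called unscaled where no array was brought to another's level. The median unscaled signal over the 50 linear mRNA probes was 2.44, 1.64 and 2.07 in HuD RIP, 1.75, 0.65 and 1.22 in WT RIP and 0.91, 0.35 and 0.58 in IgG RIP. Over the circRNA probes it was 3.91, 1.96 and 2.67 in HuD RIP, 2.0, 0.57 and 1.14 in WT RIP and 0.74, 0.39 and 0.47 in IgG RIP. Thus the linear median stood below the circRNA median on every HuD RIP array, while in the control groups the linear median was the lower on WT RIP replicate 1 and IgG RIP replicate 2 alone. Replicate spots were tight where a probe was detected, with a median SD over the spots of detected linear mRNA probes between 0.107 and 0.220 log2 by array. Of 4500 linear spot values, 146 were marked as outliers and left out, and no spot was saturated.

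Detection was the same on all 9 arrays for a part of the linear mRNA probes and varied between arrays for the rest. Of the 50, 10 were detected on all 9 arrays, 19 on 1 to 8 arrays and 21 on none. As shares, 20% of the linear mRNA probes and 18.1% of the circRNA probes were detected on all 9 arrays, and 42% and 23.3% respectively on none. The 21 that were detected nowhere were the probes for Acaa2, Anxa8, Atg3, Bambi, Carhsp1, Cav2, Cep41, Chgb, Cpt1a, Dnajc11, Gabrg1, Gsta4, H2-Q7, Hyal3, Kcnn2, Rab5a, Spats1, Tm9sf1, Trp53rka, Tyr and BC057074. They include genes that neurons transcribe, such as Chgb (chromogranin B of secretory granules), Kcnn2 (a calcium-activated potassium channel), Gabrg1 (a GABA-A receptor subunit) and Rab5a (a GTPase of early endosomes). Their highest unscaled signal on any array was 2.11.

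The 10 probes detected on all 9 arrays included those for Apoe, Gamt, Mzb1, Olfr166, Pex11a, Ppara, XM_006525458, AK004226 and ENSMUST00000062524. They name a mixed set, with the lipid carrier Apoe, the creatine-synthesis enzyme Gamt, the B-cell endoplasmic reticulum protein Mzb1, the olfactory receptor Olfr166, the peroxisome factor Pex11a and the nuclear receptor Ppara, a regulator of fatty acid oxidation. Over the 9 arrays, the highest minus the lowest unscaled signal of these named probes ran from 0.60 for AK004226 to 2.74 for Apoe. AK004226 was thus nearly level across arrays whose 75th percentile, over probes detected on all 9, ran from 4.97 to 7.13. On every array, AK004226 and ENSMUST00000062524 read below the probe named as negative that was detected on all 9. The probe for XM_006525458 read 7.13, 7.00 and 7.00 in HuD RIP, 7.20, 6.81 and 6.99 in WT RIP and 6.74, 6.48 and 6.29 in IgG RIP. Its signal was above the highest IgG RIP value on all HuD RIP and WT RIP arrays.

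A similar step in unscaled signal between IgG RIP and the other groups was seen at the probes for Gamt and Olfr166. Gamt read 5.19, 4.78 and 4.92 in HuD RIP, 5.03, 4.34 and 4.84 in WT RIP and 4.26, 3.82 and 3.86 in IgG RIP. Olfr166 read 5.40, 4.92 and 5.06 in HuD RIP, 5.26, 4.59 and 5.0 in WT RIP and 4.49, 4.07 and 4.11 in IgG RIP. Both were above IgG RIP on every array of HuD RIP and WT RIP, whereas HuD RIP and WT RIP overlapped. The probe named as negative that was detected on all 9 arrays had the same layout. It read 4.34, 4.45 and 4.07 in HuD RIP, 4.63, 4.19 and 4.29 in WT RIP and 3.88, 3.82 and 3.77 in IgG RIP. All 3 unscaled WT RIP values were above all IgG RIP values for 22.9% of the 14330 probes. The probe for AK004226 read 3.37, 3.71 and 3.51 in HuD RIP, 3.44, 3.43 and 3.50 in WT RIP and 3.34, 3.28 and 3.10 in IgG RIP. Its HuD RIP and WT RIP values overlapped as well. ENSMUST00000062524 read 3.52, 3.05 and 3.54, then 3.90, 2.81 and 3.09, then 2.61, 2.86 and 2.55 in the same order of groups, and its WT RIP and IgG RIP values overlapped. All 3 unscaled HuD RIP values were above all IgG RIP values for 60.6% of the 14330 probes. With each array reduced by its 75th percentile over probes detected on all 9, the order turned. HuD RIP then lay wholly below IgG RIP at these 5 linear mRNA probes, as at 22.4% of all probes. The scaled log2 differences were -0.43 for Gamt, -0.50 for Olfr166, -0.87 for XM_006525458, -1.12 for AK004226 and -0.71 for ENSMUST00000062524, and none was called (limma, adjusted p from 0.0592 to 0.235).

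The probe for Mzb1 varied more than these and did not follow array brightness. It read 3.52, 4.82 and 4.81 in HuD RIP, 3.27, 4.31 and 3.31 in WT RIP and 2.69, 2.76 and 2.90 in IgG RIP. The brightest array, HuD RIP replicate 1, was the lowest of its group here. No difference between groups at Mzb1 was called after scaling, with log2 differences of -0.04 (adjusted p = 0.974) against WT RIP and 0.19 (adjusted p = 0.841) against IgG RIP by limma.

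To compare groups, each array's log2 signal was reduced by its own 75th percentile over the probes detected on all 9 arrays, and limma was fitted to the 6871 probes detected on at least 3 arrays. A probe was called at an adjusted p under 0.05 over all of these. Of the 50 linear mRNA probes, 21 were detected on at least 3 arrays and could be tested. The other 29 were not tested, so the counts below are not counts over all linear mRNA probes. The Gpi1 probe passed only through its HuD RIP arrays and had to differ, so its calls are given as a description. The Actb and Lhfp probes were detected on all 3 HuD RIP arrays and 1 WT RIP array, so their passage also rested on HuD RIP. With no filter on dim probes, limma gave Actb an adjusted p of 0.000935 against WT RIP and 0.000761 against IgG RIP. For Lhfp these were 0.00415 and 0.00499. The comparisons of HuD RIP with WT RIP and with IgG RIP share the HuD RIP arrays and are given side by side.

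Against WT RIP, 3 linear mRNA probes were called higher in HuD RIP (Actb, Lhfp and Gpi1), or 2 with Gpi1 set aside, and 1 was called lower (Ppara). Over all tested probes, 15.0% were called higher and 0.495% lower. Against IgG RIP, the probes for Actb, Lhfp and Gpi1 were again the 3 called higher, or 2 with Gpi1 set aside, and 4 were called lower, among them those for Ppara, Pex11a and Gsdmd, the last without detection on any IgG RIP array. Of all tested probes, 22.0% were called higher and 5.28% lower in that comparison. Between WT RIP and IgG RIP, limma called 0 linear mRNA probes higher and 0 lower, where 0.00% and 0.0146% of all tested probes were called. At an unadjusted p under 0.05 limma gave 0 higher and 1 lower linear mRNA probe in that comparison, with 3.92% and 2.59% of all tested probes. The methods' t-test gave 0 higher and 4 lower at that level, with 4.63% and 5.57% of all tested probes. After adjustment the methods' t-test called 0 of the 6871 probes between HuD RIP and WT RIP, so the calls against WT RIP below rest on limma.

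How many linear mRNA probes were called lower turned on the scaling. With the 75th percentile taken over all non-control probes, the counts were 2 higher and 6 lower against WT RIP (12.4% and 11.0% of all tested probes) and 2 higher and 11 lower against IgG RIP (14.2% and 21.5%). Without scaling they were 3 higher and 0 lower against WT RIP (18.5% and 0.00%) and 11 higher and 1 lower against IgG RIP (70.7% and 0.116%). Over all tested probes the median difference from WT RIP was 0.35, and that from IgG RIP 0.52, after the main scaling. The same medians were -0.36 and -0.29 with the percentile over all probes and 1.13 and 1.93 without scaling. Directions below are relative to the main scaling unless the unscaled value is named.

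Actb, which encodes the cytoskeletal protein β-actin, had the largest difference of the tested linear mRNA probes in both comparisons. Its probe (A_51_P173760) read 9.78, 6.48 and 8.17 in HuD RIP, 2.62, 0.03 and 1.31 in WT RIP and 0.08, -0.0025 and 0.26 in IgG RIP, unscaled. All 3 HuD RIP arrays were far above the others, and of the control arrays WT RIP replicate 1 alone detected the probe. After scaling, the fitted difference from WT RIP was 6.04 ± 0.62 (SE) in log2 (limma, adjusted p = 0.00103), with 1 array of the 3 in WT RIP measuring it. With the other 2 raised to the lowest signal of any detected probe on their array, the difference was 5.10. No IgG RIP array was well above background, so against that group the HuD RIP signal has a lower bound, at least 24.5-fold higher. The bound itself was not tested. The call (limma, adjusted p = 0.000968) rests on the fitted difference, in which the IgG RIP arrays were not raised. Both calls held when any single array was left out. Row 1, as inferred from the barcode field of the file headers, held HuD RIP replicate 1 with the 3 WT RIP arrays. With undetected arrays raised in the same way, that 1 HuD RIP array was 6.09 above them in log2, for which no test is given. HuD RIP replicates 2 and 3, in row 2, were at least 17.4-fold above the 3 IgG RIP arrays. Those were also in a row 2, but IgG RIP replicate 3 had another scan date.

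Lhfp, a gene of the lipoma HMGIC fusion partner family of membrane proteins, had the same layout at a lower size. Its probe (A_51_P505868) read 5.21, 3.97 and 4.92 in HuD RIP, 2.32, 0.13 and 0.69 in WT RIP and 0.51, 0.31 and 0.49 in IgG RIP, unscaled. Here too WT RIP replicate 1 was the sole control array with detection. The fitted scaled difference from WT RIP was 2.86 ± 0.41 (SE) in log2 (limma, adjusted p = 0.00318), and it was 1.75 with the 2 undetected WT RIP arrays raised as for Actb. Under normexp background correction it was 0.07 (adjusted p = 0.647), and by the methods' t-test its adjusted p was 0.136. Against IgG RIP, which was not well above background on any array, the HuD RIP signal was at least 2.25-fold higher, a bound that was not tested. The call against IgG RIP (limma, adjusted p = 0.00367) rests on the fitted difference without raised arrays. That fitted difference turned to -0.16 (adjusted p = 0.304) under normexp background correction. Leaving out any single array kept both limma calls.

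Gpi1 encodes glucose-6-phosphate isomerase of glycolysis. Its probe (A_51_P426886) read 3.98, 2.81 and 3.95 in HuD RIP, 2.07, 0.47 and 1.82 in WT RIP and 0.99, 0.33 and 0.94 in IgG RIP, unscaled. The HuD RIP arrays stood above all 6 control arrays, none of which was well above background. With the control arrays at their bound, its HuD RIP signal exceeded that of WT RIP at least 1.59-fold and that of IgG RIP at least 1.04-fold. With no filter on dim probes, so that detection did not decide which probes were tested, limma gave an adjusted p of 0.0698 for the comparison with WT RIP and one of 0.0334 for IgG RIP. Neither difference was called with the percentile over all probes (adjusted p = 0.259 and 0.272), and under normexp background correction the fitted differences turned to -0.24 (adjusted p = 0.231) and -0.46 (adjusted p = 0.0249). Among the filtered probes, the call against WT RIP was lost without HuD RIP replicate 1 (adjusted p = 0.0834) or 3 (0.160), WT RIP replicate 2 (0.139) or 3 (0.0705), or any 1 IgG RIP array (0.0680 to 0.0759). That against IgG RIP was lost without HuD RIP replicate 1 (adjusted p = 0.0511) or 3 (0.0966), or any 1 IgG RIP array (0.0595 to 0.0931).

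Over the 9 arrays, the scaled signals of these 3 probes followed each other, with Pearson's r of 0.97 between Actb and Lhfp, 0.90 between Actb and Gpi1 and 0.91 between Lhfp and Gpi1. The linear mRNA probe next most like Actb (r = 0.86) and Lhfp (r = 0.91) was that for Uhrf1bp1l, detected on 2 arrays. These correlations are a description over 9 arrays in 3 groups that share one scaling. Actb, Lhfp and Gpi1 were taken for being called higher in HuD RIP, so their correlation over these groups follows in part from that choice.

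Ppara ran the other way. Its probe (A_51_P348334) read 3.91, 3.43 and 2.68 in HuD RIP, 4.71, 3.52 and 4.0 in WT RIP and 5.42, 4.17 and 4.27 in IgG RIP, unscaled, and was detected on every array. Every IgG RIP array was above every HuD RIP array before any scaling, while WT RIP overlapped both. Among all 14330 probes, 0.265% had all unscaled HuD RIP values below all IgG RIP values. Scaled, the probe fell by 2.69 ± 0.38 (SE) in log2 against IgG RIP (limma, adjusted p = 0.00347) and by 1.52 ± 0.38 (SE) against WT RIP (limma, adjusted p = 0.0288). Unscaled, it fell by 1.28 against IgG RIP (adjusted p = 0.0485), and the unscaled difference from WT RIP was -0.73 (adjusted p = 0.290). The call against IgG RIP held when any single array was left out. The call against WT RIP was lost without HuD RIP replicate 1 (adjusted p = 0.0850) or 3 (0.116), or WT RIP replicate 1 (0.0536), 2 (0.0587) or 3 (0.0860). The linear mRNA probes most like Ppara in scaled signal over the 9 arrays were those for Il2 (r = 0.87), Cep41 (r = 0.85) and Tm9sf1 (r = 0.85). Il2 was detected on 1 array and the other 2 on none. The unscaled signals of those 2 were at background throughout, so their scaled values mostly carry the percentile taken off each array.

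The fitted differences behind the lower calls for Pex11a and Gsdmd against IgG RIP changed sign without scaling. The probe for Pex11a (A_51_P456957) read 5.49, 5.48 and 5.61 in HuD RIP, 5.73, 5.17 and 5.75 in WT RIP and 5.38, 4.95 and 5.11 in IgG RIP, unscaled. It fell by 1.03 ± 0.33 (SE) when scaled (limma, adjusted p = 0.0481) and was 0.38 higher unscaled (adjusted p = 0.260). Its unscaled HuD RIP values lay above all IgG RIP values, and the scaled ones lay below. Pex11a lost its call on leaving out any single array but HuD RIP replicate 2 (adjusted p = 0.0571 to 0.126).

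Gsdmd encodes gasdermin D, a pore-forming protein of pyroptotic cell death. Its probe (A_51_P172231) read 2.64, 2.31 and 2.13 in HuD RIP, 2.35, 1.85 and 2.05 in WT RIP and 1.92, 2.03 and 1.72 in IgG RIP, unscaled, and was detected on HuD RIP replicates 1 and 2 and on WT RIP replicate 1. Limma called it lower than in IgG RIP after scaling (adjusted p = 0.0384), while the unscaled difference was 0.47 (adjusted p = 0.171). Since no IgG RIP array was well above background, its level there has only an upper bound, so no size is given and the call sets no direction. The call was lost on leaving out any single array except HuD RIP replicate 2 or WT RIP replicate 1 (adjusted p = 0.0503 to 0.124).

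Few of the 50 genes belonged to the short lists of chosen gene symbols used here for cell types or functions. Actb was the only member from the cytoskeletal list and Rps4l from that of ribosomes and translation. Chgb was the only member from the neuronal and synaptic list, Mbp from that of oligodendrocytes and Apoe from that of astrocytes. A gene outside the lists can still belong to such a class, as with the small heat shock protein Hspb7 and the neuronal genes Kcnn2 and Gabrg1. The short lists for striatal medium spiny neurons, microglia and blood, endothelial and mural cells, peripheral tissue, mitochondria, chaperones and mRNAs known to bind HuD held 0 of the 50. The striatal label of the tissue could therefore not be checked with these probes. Rps4l, listed in the reference table as a transcribed pseudogene, read 2.85, 2.65 and 3.01 in HuD RIP, 2.65, 2.25 and 2.05 in WT RIP and 2.15, 2.28 and 2.31 in IgG RIP, unscaled, near the limit of detection, and was not called in any comparison. Whether its probe also binds near-identical ribosomal protein copies is uncertain, since its sequence was not used here.

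Mbp encodes myelin basic protein and marks oligodendrocytes. Its probe (A_51_P349205) read 7.42, 2.98 and 5.80 in HuD RIP, 4.06, 1.75 and 1.57 in WT RIP and 3.71, 2.94 and 3.30 in IgG RIP, unscaled, with WT RIP replicates 2 and 3 not well above background. The spread within HuD RIP was 2.25 (SD, n = 3), wider than that of Actb at 1.65, and its lowest array fell among the IgG RIP arrays. The fitted scaled difference was 2.15 ± 0.84 (SE) against WT RIP (limma, adjusted p = 0.112), or 1.87 with the 2 undetected arrays raised as for Actb, and 0.68 ± 0.84 (SE) against IgG RIP (limma, adjusted p = 0.540), so neither passed the threshold. Apoe, made mainly by astrocytes, read 6.90, 5.46 and 6.51 in HuD RIP, 6.03, 4.16 and 4.80 in WT RIP and 4.67, 4.50 and 4.42 in IgG RIP, unscaled. It was above all IgG RIP arrays on every HuD RIP array, with an unscaled difference of 1.77 (adjusted p = 0.0226), and was not called after scaling, at 0.36 ± 0.35 (SE) (adjusted p = 0.442). Whether such differences follow the number of cells of a type, the RNA per cell, the RNA recovered or the part left by RNase R cannot be told apart in tissue precipitates.

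Of the 50 linear mRNA probes, 19 were detected on all 3 HuD RIP arrays, with 41.2% of all 14330 probes. There were 7 detected on at least 1 HuD RIP array and on no control array, those for Gpi1, Uhrf1bp1l, Taf1a, Nup50, Alkbh4, Il2 and AK053689, where 29.2% of all probes had that layout. There were 2 detected on a control array and on no HuD RIP array, those for Duox1 and X89687, both on WT RIP replicate 1, beside 0.956% of all probes. Nup50, a nucleoporin, was detected on HuD RIP replicate 3 at 2.57 and read 1.39 and 0.54 on the other HuD RIP arrays and 0.04 to 0.12 on the controls. AK053689 was detected on HuD RIP replicate 1 at 3.89 and read 0.64 and 2.21 on replicates 2 and 3, with 0.34 to 1.0 on the controls. Single-array detections of this kind were not repeated as detections in the replicates and were not tested. Below detection, Nup50 still read above every control on HuD RIP replicates 1 and 2, and AK053689 on replicate 3 but not 2.

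Hspb7, a small heat shock protein, E2f1 and Lhx1, which are transcription factors, Olfr1307, an olfactory receptor, and Prdx2, a peroxiredoxin, were also tested. None of these 5 was called after scaling. Before scaling, 11 linear mRNA probes were called higher in HuD RIP than in IgG RIP, those for Actb, Apoe, Gamt, Gpi1, Hspb7, Lhfp, Lhx1, Mzb1, Olfr166, Olfr1307 and Prdx2. The share of all tested probes called so was 70.7%. Lhx1, for one, read 3.73, 3.32 and 3.10 in HuD RIP, 3.16, 2.02 and 3.18 in WT RIP and 2.16, 1.69 and 1.55 in IgG RIP. E2f1 ranged from 2.59 to 2.93 on the HuD RIP arrays, from 2.29 to 2.74 on those of WT RIP and from 2.15 to 2.31 on those of IgG RIP, with HuD RIP and WT RIP overlapping.

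Across all 50 probes and before scaling, most means were higher in HuD RIP, yet by less than for the array as a whole. The HuD RIP mean was above the WT RIP mean for 45 of 50 and above the IgG RIP mean for 49 of 50, Ppara being the exception. All 3 HuD RIP values were above all 3 WT RIP values for 10 of 50 linear mRNA probes, against 27.4% of all 14330 probes. In 0 of 50 (1.27% of all probes) they were all below. Against IgG RIP all were above for 30 of 50, with 60.6% of all probes, and all were below for Ppara, with 0.265%. WT RIP was above IgG RIP in this way for 12 of 50, with 22.9% of all probes, and below for 1, Atg3, which was detected on no array (1.73% of all probes). These unscaled shares of linear mRNA probes were near or below those of the array as a whole. The exception was the 1 probe, Ppara, that lay wholly below IgG RIP. The median unscaled difference over the 50 was 0.30 for HuD RIP minus WT RIP, 0.59 for HuD RIP minus IgG RIP and 0.26 for WT RIP minus IgG RIP. Over all 14330 probes the same medians were 0.94, 1.42 and 0.43. After scaling and with no filter on dim probes, the medians over the 50 were -0.49, -0.82 and -0.36, beside 0.15, 0.01 and -0.19 over all probes. The 50 include 21 probes detected on no array, a larger share than among the circRNA probes, and its part in these medians was not tested.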

How the data were processed

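RNA recovered by RIP from mouse striatum was measured on 9 one-colour arrays, grouped by their labels into 3 groups of 3 (HuD RIP, WT RIP, IgG RIP). Methods and labels describe triplicate RIP assays. The authors' service provider digested RNA with RNase R, labelled it with Cy3 by random priming and scanned the arrays. The deposited scanner files hold the intensity of each spot, and per the file headers Feature Extraction 11.0.1.1 subtracted background and detrended it spatially with no normalization between arrays. The submitters' processing notes name limma. The authors' tables also hold normalized values, p-values and fold changes, which were not used (16 value columns each), and gave only gene symbols of circRNA hosts, entered under the unit of other deposited text.

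Spots of a probe (outliers left out, 269 values over all probes) were averaged as log2 of the processed signal. Each array was reduced by its 75th percentile over the 2594 probes detected on all 9 arrays, because the median share of probes detected was 31.7%. In R 4.3.3, limma 3.58.1 (1 mean per group, 6 residual and 2.72 prior degrees of freedom) was fitted to 6871 probes detected on at least 3 arrays, with Benjamini-Hochberg adjustment over all of them. The script was tested on simulated data. For a bound, each array of the dim group was given the lowest scaled signal of any detected probe, or the probe's own where that was higher, and the brighter group's mean was set against their mean. Where a group detected a probe on some arrays, its other arrays were raised in the same way. The number of arrays limits the precision, and p-values measure only the spread between these precipitations of combined tissue.

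Named probes were those called, those detected on all 9 arrays or on none, members of gene lists, and the 3 most like each of the 3 largest called changes. The rest were added for a full account, and 1 probe is counted and not reported here. Members and lists were chosen with earlier results of these data known. Probe sequences and genome positions were not used here, since the scanner files are annotated on mm9 and the reference table is GRCm38.p6. All arrays but IgG RIP replicate 3 shared 1 scan date in the file headers. Slide here means that date, also in the slide block, since no slide number was read. The row is an inference, taken from the leading part of the barcode field of the headers. Row 1 held the WT RIP arrays with HuD RIP replicate 1, and row 2 the rest, IgG RIP replicate 3 included. Alternatives were other scalings, background corrections, filters, spot summaries and detection rules, the methods' t-test, only the groups compared, replicate and slide blocks, and each array left out. The row block was added after seeing the data.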

Additional observations from a re-analysis of the deposited data

How the results depend on the processing

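With 3 arrays a group, dim probes and no undigested sample, small differences were not detectable, and 29 of 50 linear mRNA probes were too near background to be tested. Between HuD RIP and WT RIP, the count of linear mRNA probes called higher, 3, became 1 with normexp background correction, 0 when only probes detected on all arrays were kept (10 of them linear mRNA probes, without Actb, Lhfp and Gpi1) and 0 by the methods' t-test after adjustment. The count called lower, 1, became 6 with the 75th percentile over all probes, 9 with median centring, 8 with the row block, and 0 with no scaling, with normexp, by the methods' t-test or with only the groups compared. Between HuD RIP and IgG RIP, the 3 called higher became 11 with no scaling, 1 with normexp and 0 with the filter on all arrays. The 4 called lower became 11 with the percentile over all probes, 11 with median centring, 8 with quantile normalization, 15 with normexp, 14 with no filter on dim probes, 2 with only the groups compared, 2 with the row block, and 1 with no scaling, by the methods' t-test or with the slide block. Shares of all tested probes moved too. The share lower than IgG RIP, 5.28%, became 21.5% with the percentile over all probes, 23.7% with median centring, 14.0% with quantile normalization, 58.0% with normexp and 10.2% with no filter, and that lower than WT RIP, 0.495%, became 20.5% with median centring and 10.7% with the row block. Between WT RIP and IgG RIP both counts were 0 under all alternatives run. Why these counts moved was not tested, save that the filters and smaller fits change what is fitted.

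Leaving out each array in turn gave 2 to 4 higher and 0 to 2 lower against WT RIP, 2 to 3 higher and 1 to 7 lower against IgG RIP, and 0 in both directions between WT RIP and IgG RIP. Against WT RIP, the lower count was 0 without HuD RIP replicate 1 or 3 or any WT RIP array, and 2 without HuD RIP replicate 2, and the higher count was 2 without any 1 of HuD RIP replicates 1 and 3, WT RIP replicates 2 and 3 and the IgG RIP arrays. Against IgG RIP, the lower count was 1 without HuD RIP replicate 3 or any IgG RIP array, 2 without HuD RIP replicate 1 or WT RIP replicate 2 or 3, 3 without WT RIP replicate 1 and 7 without HuD RIP replicate 2, and the higher count was 2 without HuD RIP replicate 1 or 3 or any IgG RIP array. The replicate numbers were not taken to pair the arrays, since deviations of same-numbered arrays correlated at -0.21 to 0.70. These correlations were taken over the probes detected on all 9 arrays. By them, 6 of 9 arrays correlated best with their own number. With the replicate block there were 4 higher and 1 lower against WT RIP, 3 higher and 5 lower against IgG RIP, and 0 and 0 between the controls.

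The mean number of linear mRNA probes detected per array, 23.0 in HuD RIP, 15.3 in WT RIP and 11.7 in IgG RIP, became 19.0, 11.7 and 9.67 when all spots had to be marked, and 28.3, 21.7 and 16.7 when any spot sufficed. The order of the groups was the same under the 3 rules. The mean over arrays of the median unscaled signal, 2.05, 1.21 and 0.61, became 4.67, 4.58 and 4.44 with uncorrected spot signal and 5.85, 5.80 and 5.76 with normexp and its offset of 50. Differences turned sign with normexp for Gpi1 against WT RIP (-0.24) and IgG RIP (-0.46) and for Lhfp against IgG RIP (-0.16), and with no scaling for Gsdmd (0.47) and Pex11a (0.38) against IgG RIP. Over the named probes called, 150 alternative values kept direction and call, 68 kept direction only and 5 turned.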
